A study of Mus musculus with 1483 samples.

Results

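The members described here are 94 of the 45768 genes in the expression table. They are the nuclear genes for subunits of the mitochondrial respiratory chain and the ATP synthase, chosen by symbol alone: every name that starts with Nduf, Uqcr, Atp5 or Cox4 to Cox8, together with Sdha, Sdhb, Sdhc, Sdhd, Cycs and Cyc1, and without names marked as pseudogenes. By role, 36 belong to complex I, 4 to complex II, 9 to complex III, 20 to complex IV and 15 to complex V (the ATP synthase). Cycs is cytochrome c itself, and 9 are assembly factors or related genes that the same name stems bring in. The rule itself used no expression value, although it was set with earlier results of these data known. Reads were found in at least 90% of cells for 85 members, and Cox8c was at 0 in every cell. The table listed 0 genes of mitochondrial DNA under symbols that start with mt-Nd, mt-Co, mt-Cy or mt-At. The chain is therefore seen only through its nuclear part, and shares of reads refer to the listed genes.

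The respiratory chain passes electrons from NADH (through complex I) and succinate (through complex II) to ubiquinone, complex III and cytochrome c, and complex IV hands them to oxygen. The proton gradient that this builds drives the ATP synthase. In cortex, fast-spiking interneurons that express parvalbumin fire at high rates and are known for dense mitochondria. Some subunits of complex IV exist as a widely expressed form and a form known from heart and skeletal muscle, among them Cox6a1 with Cox6a2, Cox7a2 with Cox7a1 and Cox8a with Cox8b.

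The cells came from tissue labelled VISp, a name for primary visual cortex, of 33 mice of strain C57Bl/6J. Each mouse carried an adeno-associated virus in which 1 of 11 candidate enhancers drove the yellow fluorescent protein SYFP2, and 1483 SYFP2-positive cells were sorted singly and sequenced with SMARTerv4 chemistry from polyadenylated RNA. The enhancers eHGT_017h, eHGT_019h, eHGT_023h, eHGT_058h, eHGT_078h, eHGT_079h, eHGT_128h, eHGT_140h and hDLXI56i were each given to 3 mice, eHGT_064h to 4 and eHGT_082h to 2. All groups share the strain, the virus class and the sort, there was no group without a virus, and the age of the mice is not given in the sources used here. The cells sorted with different enhancers were of different classes, as given below. Throughout, the mouse was the replicate. The p-values rest on the spread between mice, where a mouse could give profiles of several classes. Where Pvalb and Sst cells of the same mice were compared, they rest on the spread of the differences inside mice.

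Values are in CPM, a gene's share of the reads of 1 cell scaled to the same total in every cell, so more reads of a member and fewer reads of other genes cannot be told apart. The median cell had 586338 reads and 9709 detected genes, and 16 cells had fewer than 100000 reads. Cell classes were set from marker genes that are no members. Excitatory cells had Slc17a7, the cortical vesicular glutamate transporter, at 10 CPM or more with Gad1 and Gad2 below 10. GABAergic cells had the reverse, and their class was the 1 gene among Pvalb, Sst, Lamp5 and Vip that reached 100 CPM. This gave 575 Pvalb, 214 Sst, 154 Lamp5, 50 Vip and 278 excitatory cells, and 212 cells were left out. Classes were compared through the mean of at least 5 cells per mouse, which gave 21 Pvalb mice over 8 enhancers, 12 Sst mice over 5, 7 Lamp5 mice over 3, 4 Vip mice over 3 and 9 excitatory mice over 3. Further markers, which the class rule did not use, were summed for each class, and each of the 5 sums was highest in the class it was listed for. The summed level of Syt2, Tac1, Kcnc1 and Cemip was 1544 CPM in Pvalb cells against 75.8 to 341 in the other classes, and that of Ndnf, Cplx3, Reln and Id2 was 2949 in Lamp5 cells against 26.3 to 546. The sum of the Vip list was 4437 CPM in Vip cells against at most 475 elsewhere, and that of the excitatory list 644 in excitatory cells against at most 222. The Sst list was less specific, with 1574 CPM in Sst cells, 966 in Vip and 759 in Pvalb cells. Single genes went against their list, since Calb2 of the Sst and Vip lists had 856 CPM in Vip and 283 in Sst cells, and Slc30a3 of the excitatory list 196 in Sst and 106 in excitatory cells.

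Some libraries stood apart in ways that touch the results. Vip cells had a lower sum of the neuronal genes Snap25, Syt1, Rbfox3 and Tubb3, 4842 CPM against 8780 to 9728 in the other classes, and a median of 7881.5 detected genes against 8916 to 10156.5. Summed markers of microglia, of endothelium and of pericytes with smooth muscle were at most 4.93 CPM in any profile, and the 5 astrocyte markers had class means of 2.41 to 35.8 CPM. The 5 oligodendrocyte markers summed to 4.36 to 141 CPM in all profiles except Sst cells of 2 mice, 1 of eHGT_023h at 2957 CPM and 1 of eHGT_064h at 984 CPM. Their part in the results was not tested, but no count below moved by more than 1.5 times without either mouse, apart from 3 counts over whole enhancers that are given there.

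2 groups of sequences help to read what follows. The first is the end of the coding sequence of the paired subunits Cox6a1 and Cox6a2, whose levels separated the classes more than those of any other pair, taken from GENCODE M21 transcripts (build GRCm38). The last 135 coding bases are shown, from 205 to 339 of Cox6a1 and from 160 to 294 of Cox6a2, counted from the start codon, and capitals mark the bases that differ.
Cox6a1: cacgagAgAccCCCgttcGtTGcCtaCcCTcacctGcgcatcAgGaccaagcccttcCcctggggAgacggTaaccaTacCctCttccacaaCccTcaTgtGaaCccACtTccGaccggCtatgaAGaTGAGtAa
Cox6a2: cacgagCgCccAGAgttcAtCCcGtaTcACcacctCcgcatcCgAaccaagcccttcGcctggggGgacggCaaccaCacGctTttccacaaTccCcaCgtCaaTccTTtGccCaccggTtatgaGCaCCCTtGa
Over the whole coding sequences 294 positions were aligned; 184 of them (62.6%) were identical, and the longest identical stretch was 12 bases. Cox6a2 lies on chromosome 7 from 128205435 to 128206387 on the minus strand, and Cox6a1 on chromosome 5 from 115345642 to 115348981, also on the minus strand. The exons of Cox6a2 overlap those of Itgad on the opposite strand, and whether the counting used strand is not given in the sources used here. Itgad itself had class means of 0 to 2.20 CPM.

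The second group is the promoters of members that lead the class comparison, shown because members moved together. They run from 250 bases before to 50 after the annotated start, from RefSeq on GRCm38.p6, and 74 of the 94 members have an entry. The motifs searched on both strands were GCGCATGC, the core of the element bound by nuclear respiratory factor NRF1, TCAAGGTCA, bound by estrogen-related receptors, and CCGGAAG, a core of ETS factors such as GABPA. The letters GCGCATGC were in 13 of 74 member promoters (17.6%) against 2.80% of 27025 promoters of the same length. For TCAAGGTCA it was 2 (2.70%) against 0.407%, and for CCGGAAG 16 (21.6%) against 9.12%. Capitals mark the matches, which are letters and not measured sites. Cycs (chr6:50566520-50566819, minus strand) has 1 NRF1 match, Ndufaf4 (chr4:24897833-24898132, plus strand) has 3, some of which overlap, Uqcrh (chr4:116075021-116075320, minus strand) has 1 ETS match, and Cox5a (chr9:57520982-57521281, plus strand) has none. Of the 7 leading members with an entry, Ndufaf2, Cox7b and Ndufb5 also have none of these letters, so 4 of the 7 hold no match.
Cycs: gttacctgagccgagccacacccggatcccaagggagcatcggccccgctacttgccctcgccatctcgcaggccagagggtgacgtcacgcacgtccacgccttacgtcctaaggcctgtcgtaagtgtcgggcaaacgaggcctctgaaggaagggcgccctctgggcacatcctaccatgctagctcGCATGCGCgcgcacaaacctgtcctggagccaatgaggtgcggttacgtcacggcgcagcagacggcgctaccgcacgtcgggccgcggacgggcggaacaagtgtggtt
Ndufaf4: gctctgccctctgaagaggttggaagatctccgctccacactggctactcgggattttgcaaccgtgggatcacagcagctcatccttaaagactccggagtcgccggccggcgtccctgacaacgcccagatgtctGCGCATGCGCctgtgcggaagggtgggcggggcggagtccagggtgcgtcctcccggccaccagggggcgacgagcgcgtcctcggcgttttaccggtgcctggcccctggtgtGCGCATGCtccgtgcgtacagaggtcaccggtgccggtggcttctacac
Uqcrh: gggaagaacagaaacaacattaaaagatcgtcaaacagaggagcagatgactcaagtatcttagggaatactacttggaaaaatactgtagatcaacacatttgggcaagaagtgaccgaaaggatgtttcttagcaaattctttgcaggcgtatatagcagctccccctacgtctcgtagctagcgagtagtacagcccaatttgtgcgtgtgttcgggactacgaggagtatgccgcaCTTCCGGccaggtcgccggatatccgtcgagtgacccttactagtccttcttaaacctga
Cox5a: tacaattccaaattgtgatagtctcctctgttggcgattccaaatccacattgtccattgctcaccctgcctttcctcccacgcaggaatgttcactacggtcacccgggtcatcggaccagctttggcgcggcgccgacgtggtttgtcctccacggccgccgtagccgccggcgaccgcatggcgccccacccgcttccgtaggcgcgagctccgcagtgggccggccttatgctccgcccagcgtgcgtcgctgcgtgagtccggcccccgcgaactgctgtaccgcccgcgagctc

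The 94 members made up 5.55% of the reads over the listed genes in Pvalb cells. The share was 3.87% in Sst, 3.57% in Lamp5, 3.08% in excitatory and 2.80% in Vip cells. Summed over all members, the level was 55544 ± 6509 CPM in Pvalb cells (SD, n = 21 mice), with a range of 40227 to 69625. It was 38675 ± 5879 in Sst cells (n = 12, 30087 to 49054) and 35652 ± 6056 in Lamp5 cells (n = 7, 29785 to 43648). Excitatory cells had 30819 ± 3715 (n = 9, 25685 to 36734) and Vip cells 28006 ± 2603 (n = 4, 25464 to 31647). All Pvalb mice were above all excitatory and all Vip mice, while the lowest Pvalb mice overlapped with the highest Sst and Lamp5 mice. Sst and Lamp5 mice overlapped widely, as did excitatory and Vip mice, and no test was made on these sums.

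**Figure D1:**
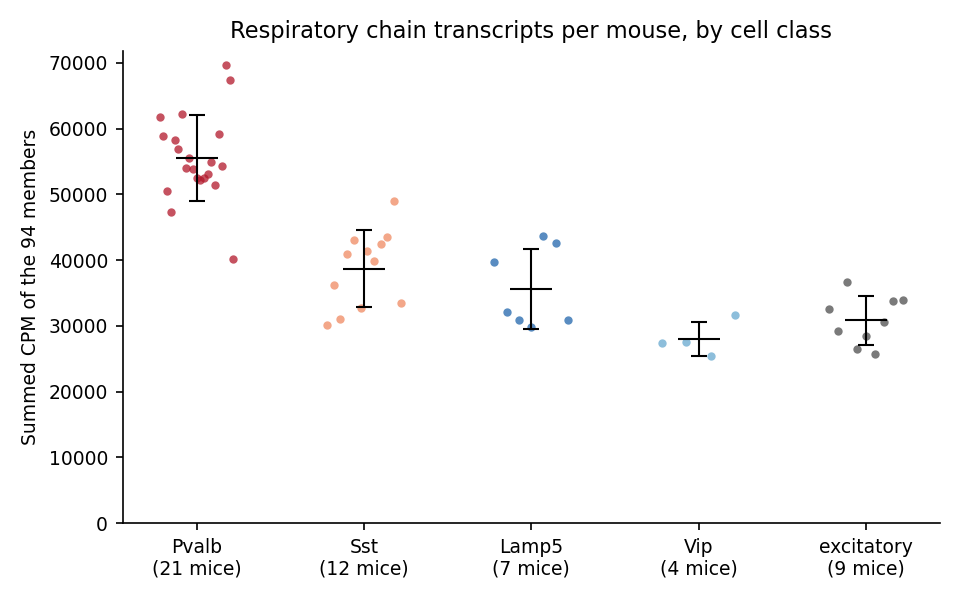
Summed CPM of the 94 members by cell class, 1 point per mouse with at least 5 cells of that class, with the mean and SD of each class. Pvalb mice sit between 40227 and 69625 CPM, and the 4 Vip mice between 25464 and 31647.

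The order held for each complex except complex IV. Complex I subunits summed to 16838 CPM in Pvalb cells, 12397 in Sst, 11383 in Lamp5, 9603 in excitatory and 8926 in Vip cells. The ATP synthase went from 16395 CPM in Pvalb to 7993 in Vip cells, complex III from 5902 to 2931 and complex II from 2167 to 1342. Complex IV went from 12785 CPM in Pvalb to 6049 in Vip cells, and there Lamp5 cells (8347) and Sst cells (8251) changed places. Taken gene by gene, 87 members reached 20 CPM in some class, and 84 of these were highest in Pvalb cells. The exceptions were Ndufaf3 and Ndufaf7, assembly factors of complex I that were highest in Lamp5 cells, and Atp5g2, a gene for the c subunit of the ATP synthase ring, highest in excitatory cells. The lowest class was Vip for 69 members, excitatory for 16 and Sst for Cox6a2 and Ndufaf7. Per kilobase of transcript over all cells, the highest levels were those of Ndufa4 (2295 CPM per kilobase), a subunit now placed in complex IV, Atp5b (2014), the catalytic beta subunit of the ATP synthase, Atp5g3 (1639), Cox8a (1625) and Cox4i1 (1614).

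In the comparison of each class with the mean of the other 4, almost the whole chain rose in Pvalb cells. Of 92 members that passed the filter on low values, 87 were called higher in Pvalb cells and 0 lower, where over all 20927 genes 20% were called higher and 22.0% lower (limma, adjusted p below 0.05 over all genes). None was lower at an unadjusted p below 0.05 either, nor on recovered reads with voom. The median member difference was 0.72 on the log2 scale, with quartiles of 0.55 and 0.86, against -0.04 for all genes. All 36 members of complex I, all 4 of complex II, all 9 of complex III and all 15 of complex V were called, with 15 of 18 in complex IV and 7 of 9 assembly and related factors. Those not called were Cox6b2, Cox7b2 and Ndufa4l2, which had class means of at most 4.14 CPM, and Ndufaf3 and Ndufaf7. A log2 difference of 1 or more was reached by 5 members. The 5 class comparisons share the same profiles, so they are not independent of each other.

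**Figure D2:**
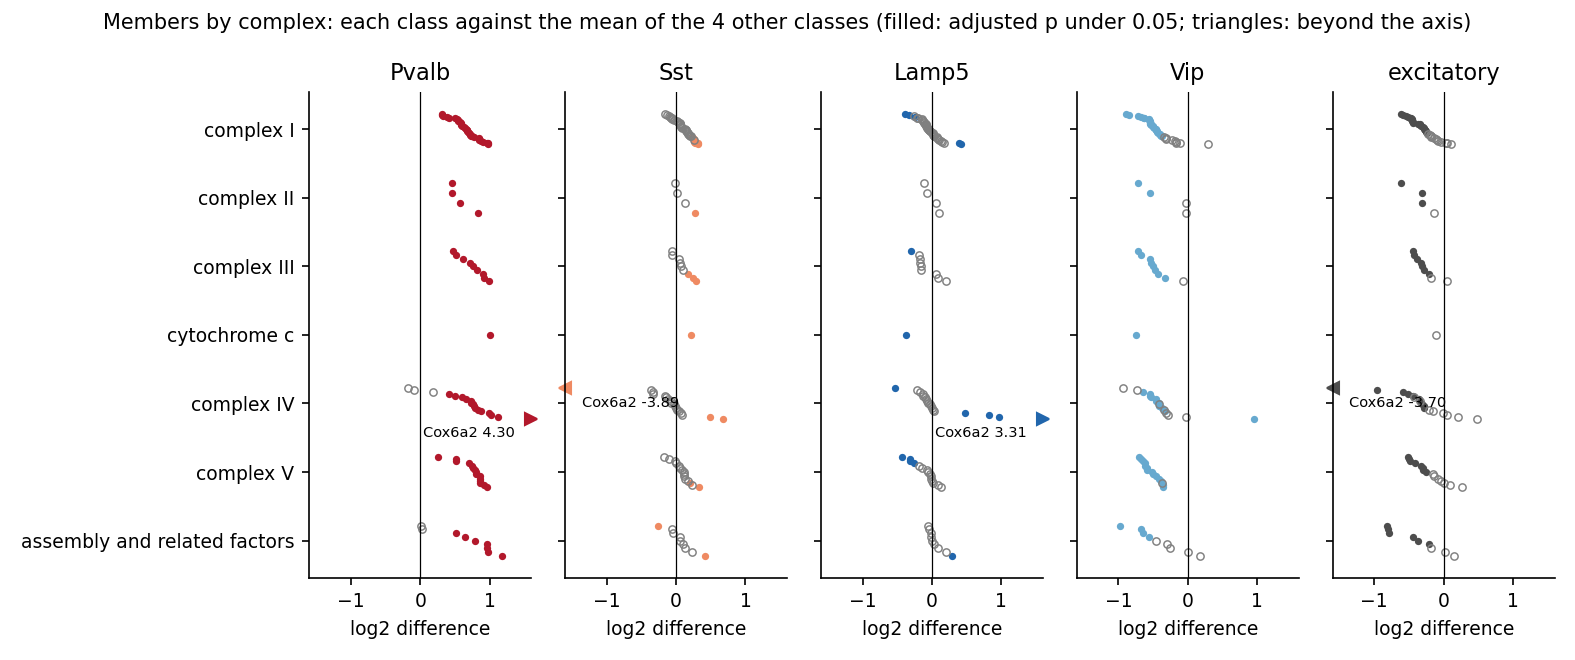
Log2 difference of each member between 1 class and the mean of the other 4, by complex, 1 panel per class. Filled points passed an adjusted p of 0.05 and triangles mark Cox6a2, which lies beyond the axis at 4.30 in Pvalb, 3.31 in Lamp5, -3.70 in excitatory and -3.89 in Sst cells.

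Among the complex I members, the differences in Pvalb cells ran from 0.31 to 0.98. The smallest were those of Ndufa7 (0.31 ± 0.08 SE), Ndufb3 (0.32 ± 0.07) and Ndufa13 (0.33 ± 0.07), all accessory subunits. Ndufaf2, an assembly factor of complex I, had a larger difference of 1.18 ± 0.09. Its level in Pvalb mice ran from 65.3 to 158 CPM with a median of 123, against medians of 61.0 in Lamp5, 60.3 in Sst and 48.1 in excitatory mice. The 4 Vip mice had 25.6, 35.7, 41.9 and 68.3 CPM of Ndufaf2, so the lowest Pvalb mouse overlapped with all classes but the excitatory one. The other 20 Pvalb mice had at least 97.4 CPM. The exons of Ndufaf2 overlap another gene on the opposite strand.

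In complex II, Sdhd, which with Sdhc anchors the complex in the membrane, rose by 0.84 ± 0.05 to 426 CPM in Pvalb cells against 242 in the others. Pvalb mice ran from 361 to 490 CPM of Sdhd with a median of 430, and Sst mice from 266 to 363 with a median of 306. The catalytic Sdha (0.46 ± 0.08) and Sdhb (0.46 ± 0.06) rose less than Sdhd in the Pvalb comparison, as did Sdhc (0.58 ± 0.06). In complex III, Uqcrh, the hinge protein next to cytochrome c1, rose by 0.99 ± 0.07 to 713 CPM against 357. Uqcrh ran from 464 to 1013 CPM in Pvalb mice and from 300 to 606 in Sst mice, and in excitatory mice it was 267 to 346, below every Pvalb mouse. Cyc1, cytochrome c1 itself, rose by 0.90 ± 0.06 from 457 to 850 CPM. Cycs, the mobile carrier between complexes III and IV, rose by 1.01 ± 0.06, with 273 to 544 CPM in Pvalb mice (median 375). It was 184 to 354 in Sst mice (median 243), 142 to 226 in Lamp5 mice, 166 to 236 in excitatory mice and 111, 136, 157 and 165 in the 4 Vip mice. Thus Cycs was higher in each Pvalb mouse than in every Lamp5, excitatory and Vip mouse. The 3 columns named as Cycs pseudogenes averaged 1.07 CPM together, so reads that were split between copies would be few if they were counted there.

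In complex IV, Cox5a, a structural subunit, rose by 1.03 ± 0.07 to 1355 CPM in Pvalb cells against 683 in the others, and Cox7b by 0.99 ± 0.09 to 1111 against 562. Cox5a ran from 860 to 2037 CPM in Pvalb mice and from 762 to 1517 in Sst mice, so these ranges overlapped, while the highest excitatory mouse had 716. Its exons overlap those of another gene on the opposite strand. Cox4i1, the main form of subunit 4, rose by 0.78 ± 0.07, Ndufa4 by 0.73 ± 0.07 and Cox8a by 0.42 ± 0.07. In the ATP synthase, the 3 genes for the same c subunit moved by different amounts in Pvalb cells. Atp5g1 rose by 0.96 ± 0.07 from 270 to 523 CPM, Atp5g3 by 0.86 ± 0.06 from 873 to 1575, and Atp5g2, at 29.0 against 24.3 CPM, by 0.26 ± 0.09 (limma adjusted p = 0.021, from 0.0027 to 0.313 over the alternatives, the highest with the mouse as a fixed effect).

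A comparison of Pvalb with Sst cells inside the same mice holds the virus, the sort and the mouse fixed, and 8 mice had at least 5 cells of both. The summed member level was higher in Pvalb cells in all 8, by ratios of 1.20 to 1.46. In the eHGT_023h mouse it was 58851 CPM in Pvalb and 43071 in Sst cells, and in the eHGT_079h mouse 55506 and 43585. The 4 eHGT_064h mice had 47310 and 32704, 58310 and 41459, 56935 and 39920, and 62210 and 42496 CPM. The 2 hDLXI56i mice had the highest and the lowest Pvalb sums, with 67464 and 49054 in one and 40227 and 33446 in the other. The mice thus differed in overall level while the direction was shared.

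**Figure D3:**
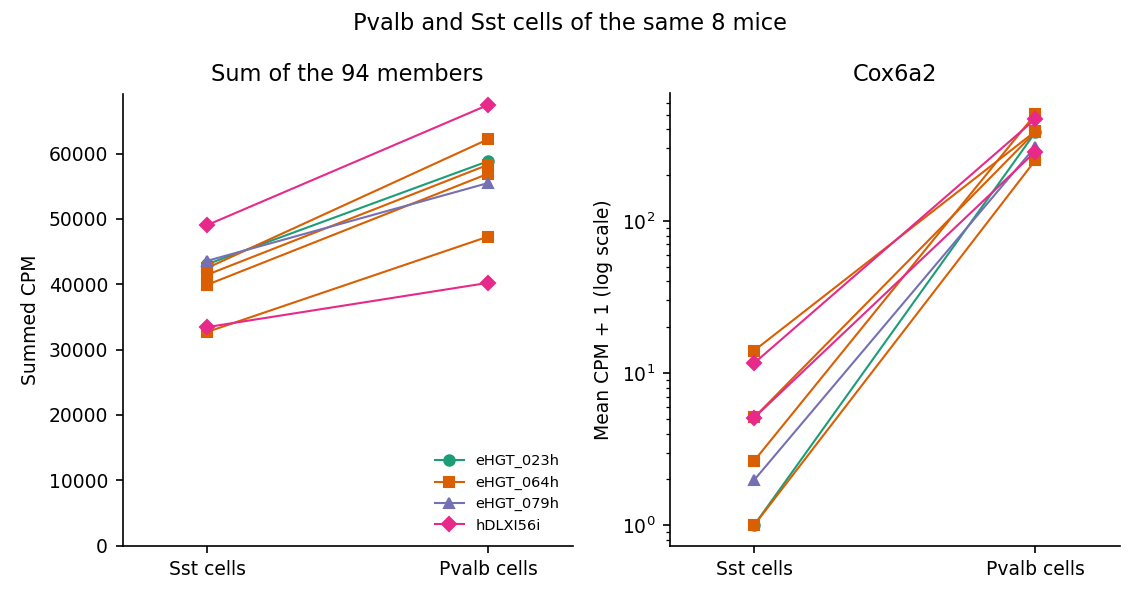
Pvalb against Sst cells of the same 8 mice, with a line joining the values of a mouse. The summed member CPM was higher in Pvalb cells of every mouse, with ratios of 1.20 to 1.46.

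Within these mice 79 of 91 members were called higher in Pvalb than in Sst cells and 0 lower, with 10.1% of 17048 genes called higher and 8.75% lower (limma with the mouse as a fixed block). None was lower at an unadjusted p below 0.05 or on recovered reads. In all 8 mice 71 members were above, against 7.18% of all genes. The median member difference was 0.41 on the log2 scale and that of all genes 0.04. By complex, 34 of 36 were called in complex I, 4 of 4 in II, 9 of 9 in III, 14 of 17 in IV, 14 of 15 in V and 3 of 9 among the assembly and related factors. Cox7b had 1032, 838, 1249, 1042, 1049, 1144, 1786 and 781 CPM in the Pvalb cells of the 8 mice, in the order given above. In their Sst cells it had 629, 505, 703, 590, 628, 855, 1048 and 605 CPM, lower in every mouse, for a log2 difference of 0.67 ± 0.06 (adjusted p = 3.9e-06). Cox5a differed less here (0.30 ± 0.06), and in the hDLXI56i mouse with the low sums it had 860 CPM in Pvalb and 911 in Sst cells. Ndufaf2 (0.87 ± 0.17), Ndufaf4 (0.82 ± 0.08), both assembly factors of complex I, Atp5sl (0.74 ± 0.09) and Atp5k (0.67 ± 0.07), the e subunit of the ATP synthase, were the next largest after Cox6a2 among members at 20 CPM or more. Atp5sl is counted here among the assembly and related factors.

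Sst cells stood near the mean of the other classes. Of 92 members 18 were called higher and 2 lower, with 12.0% and 13.7% of all genes, and the median difference was 0.07. Cox5a was among the higher ones, at 0.49 ± 0.09 (1009 CPM against 769), together with Ndufaf5, an assembly factor of complex I, at 0.41 ± 0.10 and Atp5o, in the stalk of the ATP synthase, at 0.33 ± 0.07. Cox6a2 and Ndufaf7 (0.26 lower, -0.26 ± 0.08) were the lower ones. Among mice with library letter G alone, 4 members were called higher, and on recovered reads 7. Pvalb and Sst cells summed to 54557 and 37208 CPM in mice with letter G (15 and 8 mice) and to 58011 and 41607 with letter J (6 and 4 mice).

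Lamp5 cells also lay near the mean, with 7 of 92 members called higher and 10 lower and a median of -0.04, where 13.8% and 10.4% of all genes were called. With CPM rescaled by TMM factors the split was 6 higher and 15 lower. The members called higher in Lamp5 cells were Cox6a2, the low-level Cox7b2 (4.14 CPM) and Cox6b2 (2.26 CPM), Ndufa4, Ndufa1, Ndufv3 and Ndufaf7. Of the 7 Lamp5 mice 3 carried hDLXI56i, and Cox7b2, Cox6b2, Ndufa4 and Ndufa1 were also called higher over all cells of hDLXI56i mice. Class and enhancer were not separated for these genes. Without 1 hDLXI56i mouse 4 members were called higher, and fewer than 7 with the mouse as a fixed effect. Ndufa4 rose by 0.48 ± 0.11 to 1561 CPM against 1139, with 1137 to 2199 CPM in the 7 mice (median 1313), a range that overlaps with those of Pvalb (1136 to 2819) and Sst mice (904 to 1799). Ndufa1 (0.42 ± 0.12) and Ndufv3 (0.38 ± 0.11) are subunits of complex I. Cox5a fell by 0.53 (SE 0.11), Atp5o by 0.44 (SE 0.09), Ndufa5 by 0.39 (SE 0.13) and Cycs by 0.37 (SE 0.09). Cox5a was thus higher in Sst and lower in Lamp5 cells than in the mean of the other classes, while Ndufa4 was higher in Lamp5 cells and had a difference of 0.02 ± 0.09 in Sst cells.

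Vip cells had the lowest levels. Of 92 members 66 were called lower and 1 higher, with 15.7% of all genes lower and 10% higher, and the median was -0.46 against -0.16 for all genes. In the ATP synthase 14 of 15 fell, in complex III 8 of 9 and in complex I 27 of 36. Ndufaf1, an assembly factor of complex I, fell by 0.98 (SE 0.20), Ndufa3 by 0.89 (SE 0.16), Ndufa12 by 0.84 (SE 0.15), Cycs by 0.74 (SE 0.12) and Sdhd by 0.71 (SE 0.08). The 4 Vip mice had 158, 181, 185 and 185 CPM of Sdhd, below every Pvalb, Sst and Lamp5 mouse. The 1 member called higher, Ndufa4l2, a homologue of Ndufa4, had a Vip mean of 2.85 CPM that rests on an eHGT_017h mouse at 10.2 CPM, and 0 were called higher without that mouse. These results rest on 50 cells and on 4 mice, in which the neuronal marker sum and the number of detected genes were also low, and their part in the result was not tested. On recovered reads 24 members were called lower, and with the mouse as a fixed effect 17. Over all their cells these 4 mice summed to 29209 to 33620 CPM, so the Vip class was seen only in mice of low sums. In the hDLXI56i mouse Vip cells had 31647 CPM, above Lamp5 cells (30956) and below Sst (33446) and Pvalb cells (40227). In the eHGT_017h mice Vip cells had at most 27510 CPM and Sst cells at least 30087. The eHGT_019h mouse had 25464 CPM in Vip and 30842 in Lamp5 cells.

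In excitatory cells 57 of 92 members were called lower and 0 higher, where 24.7% of all genes were called higher and 14.3% lower. At an unadjusted p below 0.05, 1 was higher, and with voom 0 were called higher. The median was -0.29 against 0.07 for all genes. Besides Cox6a2, the largest falls at 20 CPM or more were those of Atp5sl (0.82 lower, -0.82 ± 0.10), Ndufaf5 (-0.81 ± 0.12) and Atp5s (-0.79 ± 0.13), which couples the parts of the ATP synthase. Sdhc (-0.62 ± 0.08) and Ndufa4 (-0.59 ± 0.10) fell as well. Ndufa4 ran from 648 to 975 CPM in the 9 excitatory mice, below all Pvalb and Lamp5 mice. By contrast Cox4i1 had a difference of -0.02 ± 0.09 and Cox8a of 0.05 ± 0.09 in excitatory cells, and neither was called. Among letter G mice alone, where 4 excitatory mice remained, 33 members were called lower.

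Cox6a2, the form of subunit 6A known from heart and skeletal muscle, varied far more between classes than any other member above 20 CPM. Pvalb mice ran from 149 to 528 CPM with a median of 328, and the mean was 332 ± 99.9 (SD, n = 21). Lamp5 mice ran from 114 to 260 CPM with a mean of 195 ± 55.2 (n = 7), which overlaps with the lower Pvalb mice. The 4 Vip mice had 4.63, 14.7, 50.6 and 133 CPM of Cox6a2, a wide spread. Excitatory mice had 0 to 15.2 CPM (mean 5.0 ± 5.52, n = 9) and Sst mice 0 to 13.0 (3.90 ± 4.41, n = 12), so every Pvalb and Lamp5 mouse was above all of these. In the class comparison Cox6a2 differed by 4.30 ± 0.29 in Pvalb, 3.31 ± 0.42 in Lamp5, -3.89 ± 0.34 in Sst, -3.70 ± 0.39 in excitatory and -0.03 ± 0.53 in Vip cells, on the log2(CPM + 1) scale. All but the last were called. At a threshold of 10 CPM it was detected in 97.9% of Pvalb, 88.3% of Lamp5, 38.0% of Vip, 8.99% of excitatory and 7.94% of Sst cells. Levels in Pvalb and Sst cells were 316 and 2.97 CPM with library letter G and 373 and 5.75 with letter J.

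Inside the 8 shared mice Cox6a2 had 382, 250, 384, 387, 503, 307, 467 and 285 CPM in Pvalb cells. In Sst cells of the same mice it had 0, 0, 4.10, 13.0, 1.65, 0.980, 10.6 and 4.08 CPM. Every pair differed in the same direction, and the log2 difference was 6.70 ± 0.38 (adjusted p = 1.1e-07). Pvalb and Lamp5 cells could be set side by side in 4 mice. In the 3 hDLXI56i mice Cox6a2 was 528, 467 and 285 CPM in Pvalb and 260, 242 and 137 CPM in Lamp5 cells, and in the eHGT_058h mouse 149 and 170, so Pvalb cells were higher in 3 of 4. This difference was not tested.

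Its partner Cox6a1 was abundant in every class, with 980 CPM in Pvalb, 679 in Lamp5, 636 in Sst, 593 in excitatory and 461 in Vip cells. Per length of transcript, Cox6a2 made up 21.9% ± 3.81 of the pair in Pvalb cells (SD, n = 21 mice) and 19.7% ± 4.24 in Lamp5 cells (n = 7). The share was 7.93% ± 8.58 in Vip (n = 4), 0.766% ± 0.879 in excitatory (n = 9) and 0.489% ± 0.518 in Sst cells (n = 12). The pair therefore split the interneurons differently from the rest of the chain: Lamp5 and Sst cells had overlapping sums of all members but non-overlapping shares of Cox6a2. Both members rose in Pvalb cells (Cox6a1 by 0.73 ± 0.08), so the higher share of Cox6a2 did not go with a lower level of Cox6a1.

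**Figure D4:**
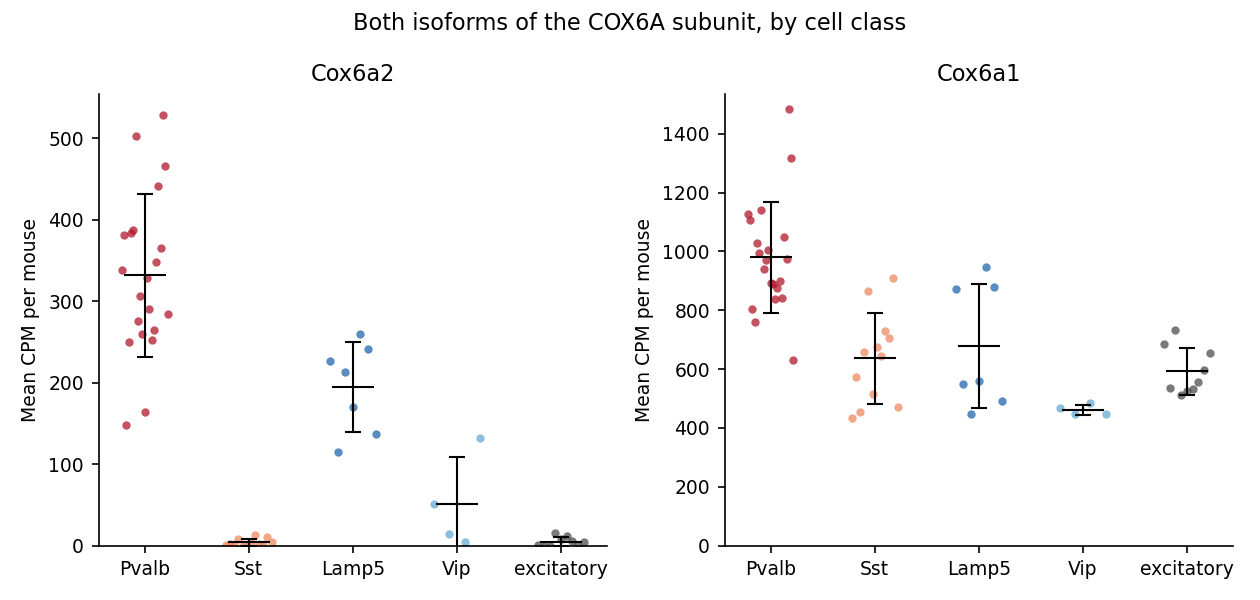
Cox6a1 and Cox6a2 by class, 1 point per mouse. Cox6a2 spans 149 to 528 CPM in Pvalb and 114 to 260 in Lamp5 mice and stays at or below 15.2 CPM in Sst and excitatory mice, while Cox6a1 is present in all classes.

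The other restricted forms stayed near 0. Cox8b was listed at 0 in every Sst, Vip and excitatory mouse and had 1.53 CPM in Pvalb cells, 0.222% of its pair with Cox8a per length. Cox7a1 was at most 1.91 CPM in the class means, and its share against Cox7a2 was 0.284% to 0.456% in all classes. Cox4i2, a form of subunit 4 known from lung and low oxygen, made up at most 0.00352% of its pair in any class. Cox7b2 reached 1.15% of its pair in Lamp5 and 1.07% in excitatory cells, and Cox6b2, known from testis, 0.382% in Lamp5 cells. In each of these pairs the widely expressed form carried nearly all reads, which leaves subunit 6A as the 1 pair in which the second form took more than 2% in a class mean.

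Among the cells left out were 108 GABAergic cells that reached 100 CPM for both Pvalb and Sst. Their median was 460 CPM of Pvalb and 3039 CPM of Sst. Cox6a2 had a median of 3.89 CPM in these cells and reached 10 CPM in 38.9% of them, between the Sst and the Pvalb cells. Over the 12 mice with at least 5 such cells it ran from 0.819 to 64.3 CPM. The summed member level there was 46667 ± 4861 CPM, which also lies between the means of the Sst and Pvalb classes. The class comparison leaves these cells out. Giving each GABAergic cell the class of its highest marker raised the number of members called higher in Sst cells from 18 to 42.

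The other genes of energy metabolism, from lists chosen by function, moved with the chain in Pvalb cells to different degrees. In the citric acid cycle 16 of 17 genes rose and 1 fell in Pvalb cells, and inside the shared mice 15 of 17 rose against Sst cells, where 10.1% of all genes did. Glycolysis had 10 of 16 higher and 3 lower, proteins of the mitochondrial ribosome 50 of 77 higher and 1 lower, and mitochondrial antioxidants 5 of 6 higher. Cytosolic ribosomal proteins, which are short and abundant like many members, had 7 of 81 higher and 11 lower in Pvalb cells, and 0 of 79 higher with 7 lower inside the shared mice, where 8.75% of all genes were lower. None of these was a test of the list, and the counts for Pvalb cells are to be read beside the 20% of all genes called higher there and the 22.0% called lower. Of 10 regulators of mitochondrial biogenesis 8 rose in Pvalb cells and 0 fell. Esrrg, an estrogen-related receptor, had 155 CPM against 28.4 (2.60 ± 0.17), and Ppargc1a, the coactivator PGC-1alpha, had 427 against 209 (1.27 ± 0.13). Nrf1, whose motif was counted above, had 15.6 CPM against 20 and was not called. Ldhb rose by 1.49 ± 0.07 to 2650 CPM in Pvalb cells while Ldha, the other lactate dehydrogenase chain, fell by 1.88 (SE 0.09) to 115 against 469. Assembly factors of complex IV had 9 of 14 higher and 1 lower. In Vip cells 14 of 17 citric acid cycle and 12 of 16 glycolysis genes fell, against 15.7% of all genes. In excitatory cells 8 of 17 fell in the first list while in glycolysis 7 of 16 rose and 4 fell, where 24.7% of all genes were higher and 14.3% lower.

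The length of the transcript bore little relation to the class differences. Over 90 members the Spearman correlation of the Pvalb difference with transcript length was 0.065, and the median difference was 0.70 for 33 members shorter than 700 bases and 0.75 for 23 members of 1500 bases or more. For Vip cells the correlation was 0.067 and for excitatory cells -0.056, while for Sst cells it was 0.21 and for Lamp5 cells -0.23. These are descriptions over genes of the same libraries.

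Between enhancers, taken over all sorted cells of a mouse, 83 of 91 members differed (F test over 11 enhancers and 33 mice, limma), where 53.4% of all 18932 genes did. The summed level was highest in eHGT_140h with 54035 ± 3582 CPM, eHGT_128h with 52159 ± 1927, eHGT_079h with 50605 ± 1506 (SD, n = 3 mice each) and eHGT_082h with 50085 ± 944 (n = 2). It was 47361 ± 6081 in eHGT_064h (n = 4), 47297 ± 8290 in eHGT_023h and 47088 ± 11674 in hDLXI56i. The 4 lowest were eHGT_019h with 34160 ± 4305, eHGT_078h with 32969 ± 2147, eHGT_017h with 31378 ± 2176 and eHGT_058h with 29461 ± 2473 (n = 3 each). The first 4 enhancers were above the last 4 in every mouse, and within each set of 4 the ranges of neighbouring enhancers overlapped. The 3 hDLXI56i mice had 54310, 53334 and 33620 CPM, so 1 mouse lay with the low enhancers.

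The order of the enhancers went with the classes they labelled. Pvalb cells made up 92.0% of the eHGT_140h cells, 81.6% in eHGT_128h, 80.5% in eHGT_082h and 61.7% in eHGT_079h. In the low set, 97.1% of eHGT_078h and 76.7% of eHGT_058h cells were excitatory, 64.8% of eHGT_019h cells were Lamp5, and 51.7% of eHGT_017h cells were Sst with 22.0% Vip. Class and enhancer cannot be told apart in these whole-mouse values.

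**Figure D5:**
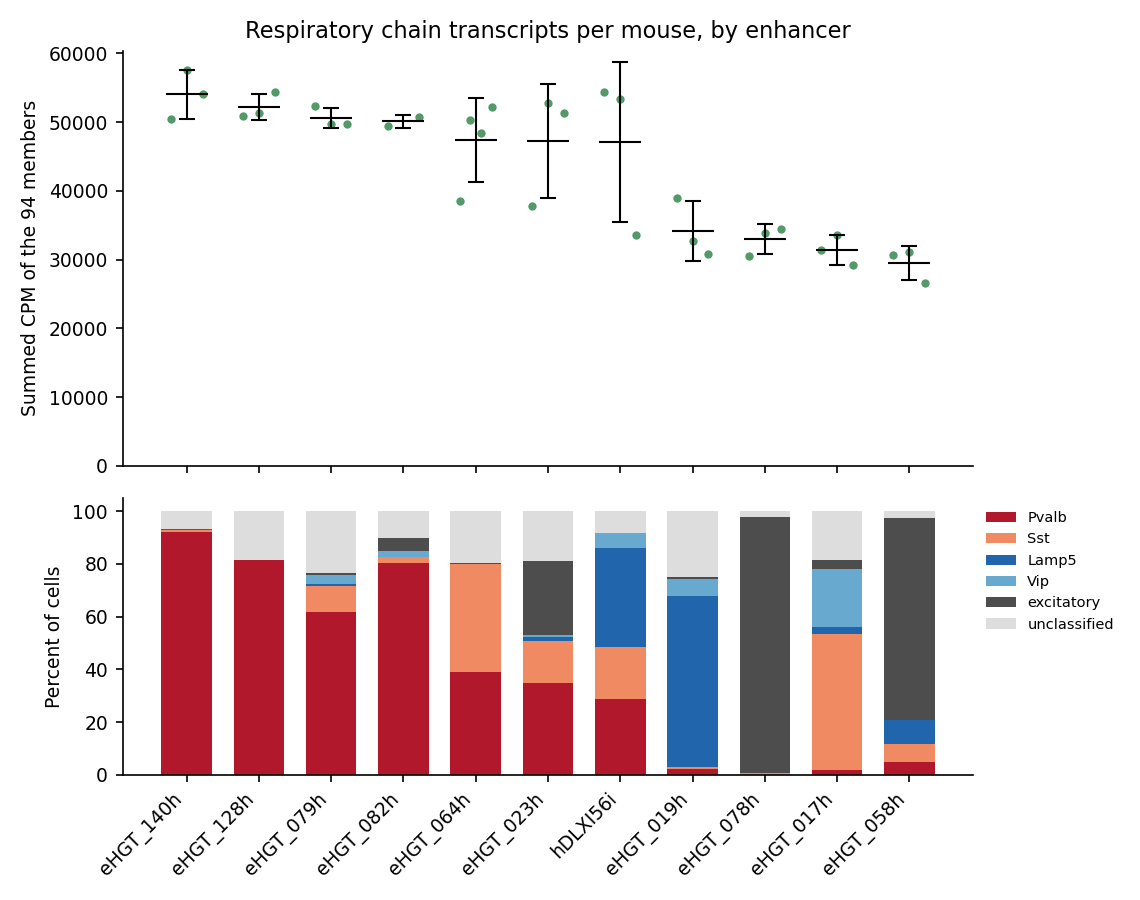
Summed member CPM over all cells of a mouse, by enhancer, with the mean and SD, above the share of cells of each class. The 4 enhancers with the highest sums had means of 50085 to 54035 CPM, and the 4 enhancers with the lowest sums had means of 29461 to 34160.

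Set against the mean of the other 10 enhancers, members fell in the 4 lowest. A larger share of members than of all genes was called higher in eHGT_140h, eHGT_128h, eHGT_079h and eHGT_064h. This was not so in eHGT_082h and eHGT_023h, and hDLXI56i is given further below. These 11 comparisons share mice. In eHGT_140h 44 of 91 members were called higher and 0 lower (4.92% and 7.61% of all genes), with Cox6a2 at 2.29 ± 0.53 and Uqcrh at 0.64 ± 0.15. In eHGT_128h 31 rose and 0 fell (4.33% and 6.88%), led by Ndufaf4 and Ndufs1, the large subunit of complex I, at 0.57 each. For eHGT_079h it was 9 and 0 (1.61% and 2.47%), for eHGT_064h 6 and 0 (2.89% and 4.98%), and for eHGT_082h Atp5b alone and 0 (1.83% and 1.44%). With voom none was lower in these 5 enhancers either, and at an unadjusted p below 0.05 there was 1, in eHGT_082h. In eHGT_023h 0 were called in either direction (0.782% and 0.327%), with 19 higher and 0 lower at an unadjusted p below 0.05 and 2 higher with voom. Without 1 mouse the count fell to as few as 14 for eHGT_140h, 11 for eHGT_128h and 0 for eHGT_079h. Without the eHGT_064h mouse whose Sst cells carried oligodendrocyte markers, the count for eHGT_064h was 12, and without each of its other 3 mice it was 1, 2 and 2. That for eHGT_082h was 0 without either of its own mice. Without the eHGT_023h mouse with these markers, the count for eHGT_023h was 4 and that for eHGT_082h was 3.

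In the 4 low enhancers members fell and none was called higher, with limma or voom. In eHGT_058h 71 fell (19.3% of genes were higher and 13.1% lower), in eHGT_017h 68 (8.01% and 4.85%), in eHGT_078h 55 (17.7% and 14.4%) and in eHGT_019h 42 (14.2% and 10.8%). At an unadjusted p below 0.05, 1 was higher in eHGT_019h and 0 in the other 3. Cox6a2 fell in eHGT_078h by 5.12 (SE 0.53), to 3.16 CPM, in eHGT_017h by 3.07 (SE 0.53), to 16.4, and in eHGT_058h by 1.61 (SE 0.53), to 35.4. In eHGT_019h, whose cells were mostly Lamp5, its mean was 159 CPM and it was not called, while Cox5a fell by 0.84 (SE 0.14) and Atp5g1 by 0.77 (SE 0.14). Without 1 of its mice the count was as low as 12 in eHGT_017h, 15 in eHGT_019h, 24 in eHGT_078h and 49 in eHGT_058h.

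hDLXI56i, a forebrain interneuron enhancer, gave 7 members higher and 7 lower, with 6.71% and 4.31% of all genes. The higher ones were Cox7b2, Cox6b2, Uqcrb, Ndufa1, Ndufa4, Ndufb4 and Ndufb3, and the lower ones included Ndufs1 (0.66 lower, -0.66 ± 0.11), Sdha (-0.54 ± 0.10) and Atp5a1, the alpha subunit of the ATP synthase (-0.49 ± 0.09). Transcript length went with this difference: the Spearman correlation over 89 members was -0.51, with a median of 0.30 for the 33 short and -0.01 for the 23 long members. In the same mice 21 of 79 cytosolic ribosomal protein genes, which are short as well, were higher. Without the mouse of low sums 60 members were called higher, and without 1 of the other hDLXI56i mice 0 or 1.

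With the class held constant, few members were called between the enhancers that could be compared. Of the 4 enhancers with the lowest sums, none entered the test within Pvalb cells and only eHGT_017h that within Sst cells. The fall in the other low enhancers was therefore not tested inside a class. Among Pvalb cells of 20 mice and 7 enhancers, 4 of 92 members differed (1.28% of genes), and among Sst cells of 11 mice and 4 enhancers 0 of 90 did (0.160%). At an unadjusted p below 0.05, 13 and 12 differed, and with voom 2 and 0. The 4 in Pvalb cells were Atp5a1, Atp5b, Cox6b2 and Ndufaf1. Atp5b had 3512, 3145 and 3692 CPM in the 3 hDLXI56i mice and at least 4444 in the other mice tested, and Atp5a1 had 1605, 1592 and 1838 against at least 2237, with adjusted p = 0.014 for each. Cox6b2 had 5.01, 5.18 and 6.22 CPM in the hDLXI56i mice and at most 2.32 in the others (adjusted p = 0.0055). For these 3 genes hDLXI56i stood outside the range of all other enhancers. Without the hDLXI56i mouse of low sums the count rose from 4 to 45, and without another of its mice it fell to 1. Among the tested enhancers, summed levels in Pvalb cells ran from 52275 ± 231 CPM in eHGT_082h (SD, n = 2) to 60338 ± 2102 in eHGT_023h (n = 2). In hDLXI56i they were 59105 ± 16385 (n = 3), and the values of 40227 and 69625 that bound the Pvalb class both came from its mice. Sst cells had 32473 ± 3284 CPM in eHGT_017h (n = 3), 39144 ± 4422 in eHGT_064h (n = 4), 42006 ± 1506 in eHGT_023h and 41250 ± 11037 in hDLXI56i (n = 2 each). Excitatory cells had 26868 ± 1384 CPM in eHGT_058h, 32770 ± 1952 in eHGT_078h and 32818 ± 3788.5 in eHGT_023h (n = 3 each). No test between enhancers was run in excitatory cells.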

How the data were processed

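The authors deposited 1 table of CPM, in which every cell sums to the same total, for 1483 cells and 45768 genes. STAR and mm10 appear in the submitters' processing notes, with neither role nor version. Divided by the smallest value of its cell, each nonzero value came out whole (100%, tolerance 0.01), which gave back the reads; they ran from 833 to 1018507 (median 586338) and carry no molecular identifiers. 9567 genes were at 0 in every cell. Cells were tied to samples by the cell name in the sample description. The enhancer was the genotype label and the mouse was the MouseID of the sample. A mouse gave 32 to 53 cells, although the series' design text names 48 as its upper limit. Doublets were not called, and no cell was filtered out.

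CPM was averaged per mouse and class (at least 5 cells) or per mouse, and log2(mean CPM + 1) was tested with limma 3.58.1 (trend and robust, R 4.3.3, statmod 1.5.0) over all genes reaching 1 CPM in 2 or more profiles, with Benjamini-Hochberg adjustment over all genes. A fold on this scale understates changes of low genes. The mouse was a random block in the class comparison (correlation 0.0807), with the same correlation kept when a mouse was left out, and a fixed block in the comparison within mice. The fit was checked on simulated data. edgeR was planned for raw counts and was not run. The recovered reads, after the limma voom step, were an alternative instead. Others were a pseudocount of 10, no filter, other class rules, TMM factors, cells with at least 100000 reads and the library letter (24 mice with G, 9 with J); voom and the letter G subset were added after the data were seen.

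Transcript lengths are those of GENCODE M21 principal transcripts, which name 92 of the 94 members; exons of 31 members overlap another gene, and 4 members have pseudogene columns. Promoters are from RefSeq on GRCm38.p6. Members were named if they are paired or carrier subunits or complex II, or among the 6 largest and 4 smallest called differences with a mean of at least 20 CPM, or the 5 highest per length. Members named by enhancer, and Ndufs1, Uqcrb, Ndufb4 and Atp5a1 elsewhere, were chosen after their values were seen. The members, lists and tests were chosen with earlier results of these data known. Figures were drawn with matplotlib 3.10.9, and tables were handled with python 3.11.15, pandas 2.3.3, numpy 2.4.6, scipy 1.17.1 and biopython 1.88.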

Additional observations from a re-analysis of the deposited data

Results flagged for a closer look

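In groups of 4 to 10 mice, single members were looked at for a mouse far from the others. Of 190 groups, 14 held such a mouse, and chance gives about 1 in 20. Among the 4 Vip mice, the hDLXI56i mouse was high for Atp5g3 (952 CPM), Cox7a2 (542 CPM) and Ndufb2 (360.4 CPM). An eHGT_017h mouse was high for Ndufa4l2 (10.2 CPM) and Ndufaf1 (69.0 CPM) and low for Sdhd (158 CPM). Another eHGT_017h mouse was high for Cox6b2 (0.966 CPM), and an eHGT_019h mouse for Cox7b2 (3.46 CPM). Among Lamp5 mice, Atp5sl was low in the eHGT_058h mouse (46.3 CPM), Cox4i2 was high in 1 hDLXI56i mouse (0.149 CPM) and Cox8b in another (0.910 CPM). Among excitatory mice, Atp5sl was low in an eHGT_058h mouse (25.7 CPM), Cyc1 was high in an eHGT_023h mouse (621 CPM) and Ndufa4l2 in an eHGT_078h mouse (0.252 CPM).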

How the results depend on the processing

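Direction was checked for the named members in the class and within-mouse comparisons. None that was called in the main or the alternative fit changed its direction, and members called in neither were not checked. The counts of members higher in Pvalb cells, overall and within mice, stayed within 1.5 times their main values under all alternatives. So did the count of members differing between enhancers. With the class of the highest of the 4 markers 42 members were higher in Sst cells, and with a class threshold of 500 CPM 36, in place of 18. With at least 10 cells per mouse and class (1 Vip mouse) 8 were higher in Sst cells, 6 lower in Lamp5 cells, 0 higher and 24 lower in Vip cells, 1 lower in Pvalb than Sst cells of the same mice, and 45 differed between enhancers within Pvalb cells. The mouse is the block in every class comparison. With the mouse as a fixed effect 6 members were lower in Sst cells, 2 higher in Lamp5 cells, and 2 higher and 17 lower in Vip cells. With voom on recovered reads 7 were higher in Sst cells, 24 lower in Vip cells, 2 higher in eHGT_023h mice, 6 in eHGT_082h and 11 in hDLXI56i mice, and 2 differed within Pvalb cells. Among letter G mice 4 were higher in Sst, 5 lower in Lamp5 and 33 lower in excitatory cells. The cause of these shifts was not tested.

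Without 1 mouse at a time, 85 to 87 members were higher and 0 lower in Pvalb cells, 14 to 23 higher and 2 to 3 lower in Sst cells, 4 to 7 higher and 6 to 13 lower in Lamp5 cells, 0 to 2 higher and 49 to 70 lower in Vip cells, and 0 to 1 higher and 52 to 58 lower in excitatory cells. Within mice, 74 to 79 were higher and 0 lower in Pvalb than in Sst cells. Between enhancers 79 to 88 differed, within Pvalb cells 1 to 45 and within Sst cells 0. For single enhancers, 12 to 77 were lower in eHGT_017h, 15 to 57 in eHGT_019h, 49 to 81 in eHGT_058h, 24 to 68 in eHGT_078h and 3 to 8 in hDLXI56i, and 0 to 4 were higher in eHGT_023h, 1 to 12 in eHGT_064h, 0 to 12 in eHGT_079h, 0 to 4 in eHGT_082h, 11 to 35 in eHGT_128h, 14 to 54 in eHGT_140h and 0 to 60 in hDLXI56i. The other directions stayed at 0. Lamp5 counts moved most without hDLXI56i mice (4 higher without one, 6 lower without another), and Vip counts without an eHGT_017h mouse (0 higher) or an hDLXI56i mouse (2 higher). For the named members, 974 of the class and within-mouse calls were the same under the other settings and 125 were no longer called, and 3226 and 109 when a mouse was left out. A median cell of 586338 reads limits little for members above 20 CPM, while forms near 1 CPM rest on few reads.

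Replicate numbers here are mouse numbers of 1 enhancer each. Pvalb and Sst cells of the same 8 mice were compared within mice. Between enhancers, no paired analysis was possible because the enhancers share no replicate numbers.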
